A study of Ovis aries with 30 samples.

Results

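The expression of 9 genes was followed across the liver of 30 lambs: the hepatocyte transcription factors HNF4A, FOXA1, FOXA2, FOXA3, CEBPA, CEBPB, ONECUT1 and PROX1, and ALB, the albumin gene, read beside them as a target. They were chosen by name, and all 9 were found by symbol among the 31304 gene rows of the count table. They were not chosen by a threshold on their values. The lambs were the first-generation offspring of control ewes or of ewes exposed to biosolids, the treated sewage sludge that is spread on farmland and contains many man-made chemicals. Exposure covered the time before conception and gestation, and the question of the study was what it does to the liver transcriptome of each sex. RNA came from frozen pieces of whole liver, taken from 15 control lambs (8 females and 7 males) and 15 biosolids lambs (8 females and 7 males). Each lamb has its own tag number. The labels name neither age at sampling nor breed nor litter.

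Hepatocyte identity rests on a small set of transcription factors that bind each other's regulatory regions as well as those of the genes for plasma proteins and metabolic enzymes. FOXA factors open chromatin in the liver primordium, HNF4A is the nuclear receptor required for most of the mature hepatocyte programme, and ONECUT1 and PROX1 act in early liver outgrowth and later in hepatocyte metabolism. CEBPA is the differentiation-linked member of the C/EBP family, whereas CEBPB is induced by interleukin 6 and other acute signals and during regeneration. Albumin transcription is a classic output of this network.

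Library totals lay between 18.7 and 51.9 M (mega-counts). Ribosomal RNA rows took 0.299 to 7.69% of the counts in 29 lambs and 87.5% in biosolids male 8778, which left that library 2.34 M other counts. Control female 8263 had the highest summed level of macrophage and lymphocyte markers. It was also the lowest control female for HNF4A, FOXA1, FOXA2, CEBPA, ONECUT1, PROX1 and ALB, and 8778 was the lowest biosolids male for HNF4A, FOXA2 and PROX1. The TMM scaling factor, by which a library's size is multiplied before CPM are formed, lay between 0.961 and 1.23 in control females (median 1.15), between 0.949 and 1.25 in biosolids females (median 1.17), between 0.895 and 1.02 in control males (median 0.967) and up to 1.23 in biosolids males (median 1.01, with 8778 at 0.151). The tissue label was borne out by its defining gene: ALB had the highest CPM (counts per mega-count of the library, with library sizes scaled by TMM) of all 17840 tested genes, and it held 3.84 to 7.38% of the counts outside ribosomal RNA, with a median of 5.75%. The 8 factors together held 0.153 to 0.236%, with a median of 0.197%. Nothing labels the lambs as separate litters, so the p-values below measure the spread between these lambs.

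The 9 genes were far apart in level, and for 4 of the 8 neighbouring pairs the order was the same in every lamb. Levels between genes were compared as CPM per kilobase of the exon length that the table gives. ALB had a median of 25117 CPM per kilobase, with a range from 14596 to 35422. CEBPA followed at a median of 192 (100 to 342) and CEBPB at 131 (84.3 to 247). HNF4A, at 74.5 (47.6 to 118), and PROX1, at 38.8 (24.8 to 56.6), took the middle. The lower 4 were FOXA3 at 18.6 (8.65 to 30.9), FOXA2 at 12.8 (6.23 to 24.2), ONECUT1 at 8.29 (4.75 to 13.8) and FOXA1 at 6.88 (4.10 to 11.9). Each of these medians is in CPM per kilobase over the 30 lambs.

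**Figure D1:**
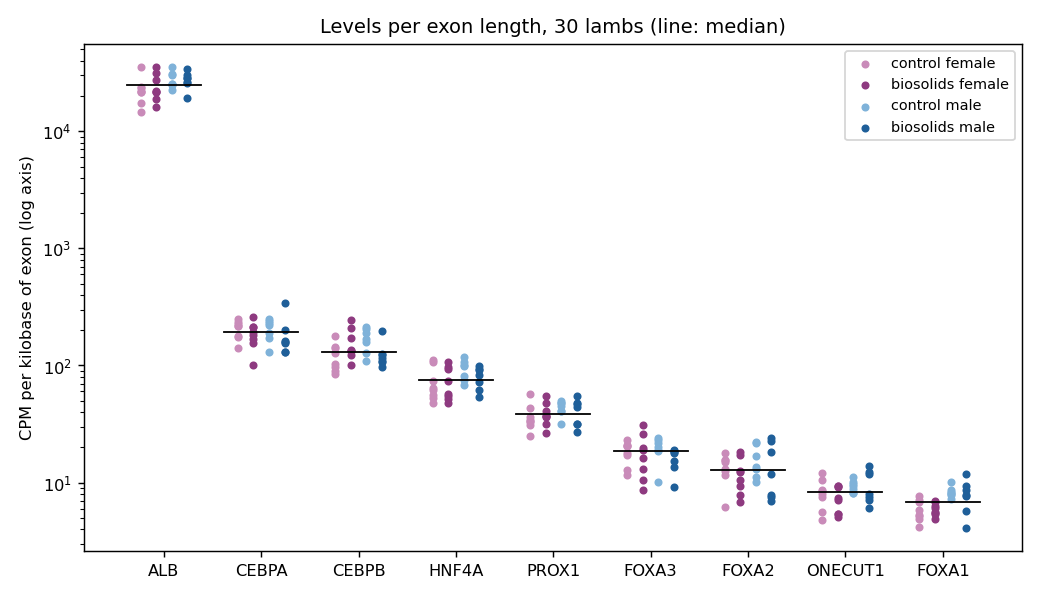
Level of each gene in each of the 30 lambs, as CPM per kilobase of exon on a log axis; each point is 1 lamb, colours mark the 4 groups and the line is the median. ALB stands apart at a median of 25117, and the 8 factors spread from a median of 192 for CEBPA down to 6.88 for FOXA1.

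The order held within lambs for some neighbours and not for others. In all 30 lambs ALB stood above CEBPA, by a median ratio of 133, CEBPB above HNF4A, HNF4A above PROX1 and PROX1 above FOXA3. The ratio of HNF4A to PROX1 kept to a narrow range, from 1.30 to 2.53. By contrast, FOXA3 exceeded FOXA2 in 19 of 30 lambs and ONECUT1 exceeded FOXA1 in 24, so the order of these neighbours was not the same in every lamb. CEBPA exceeded CEBPB in 26 lambs and FOXA2 exceeded ONECUT1 in 27. The first of these depends on the gene model, since CEBPA has the shortest one, a single exon of 1088 bases. Without division by length, CEBPA had the higher CPM in 6 of 30 lambs.

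No member differed between biosolids and control lambs, or between males and females, at an adjusted p under 0.05 (edgeR's quasi-likelihood test, Benjamini-Hochberg over 17840 genes). The background was as low. The share of all tested genes that passed was 0% for exposure in females, 0% for exposure in males, 0% for exposure averaged over both sexes and 0% for the interaction of exposure and sex. For males against females the share was 0.0841% within controls and 0.0953% within biosolids lambs. At an unadjusted p under 0.05, 0 of 9 members were on the list for exposure in females, against 3.65% of all genes, and 1 of 9 for exposure in males, against 5.44%. The same limit held 2 of 9 members for sex in controls, against 18.9%, and 2 of 9 for sex in biosolids lambs, against 4.85%. It held 0 of 9 for exposure averaged over sexes (4.3% of all genes), 1 of 9 for the interaction (3.63%) and 2 of 9 for sex averaged over exposure (19.6%). No member had groups that did not overlap, which held for 0% of genes for exposure in females, 0.0561% for exposure in males, 0.213% for sex in controls and 0.0673% for sex in biosolids lambs. In these bulk samples, fewer hepatocytes and less RNA per hepatocyte cannot be told apart.

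**Figure D2:**
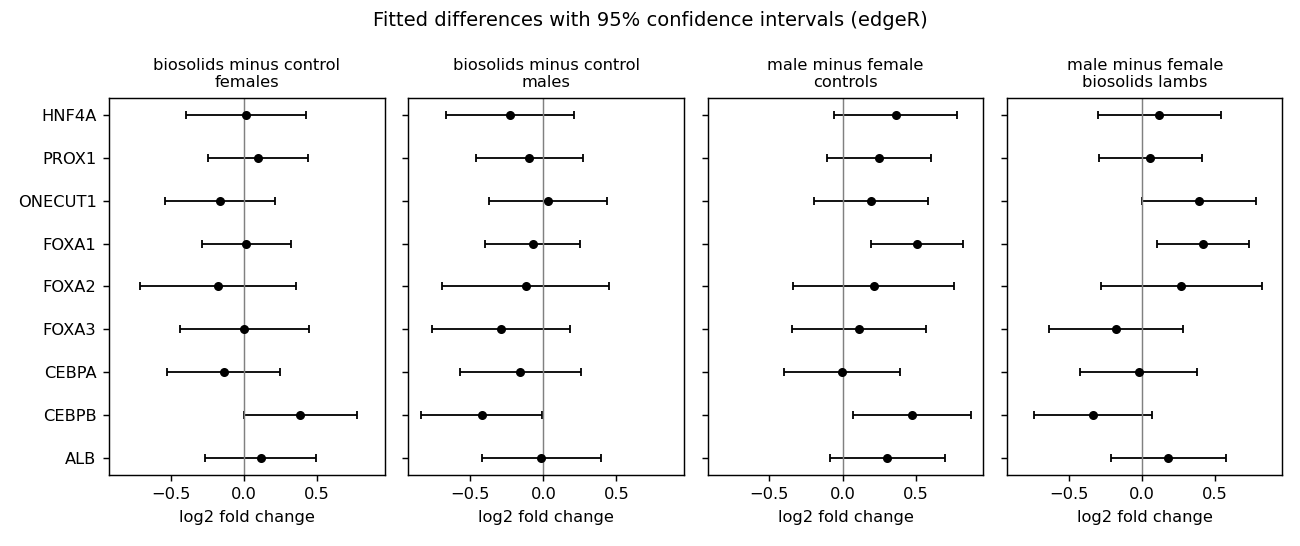
Log2 fold change of each gene in 4 contrasts (biosolids minus control within each sex, and males minus females within each exposure), with 95% intervals from the 4-group model of all 30 lambs. The FOXA1 intervals for sex lie above 0 in both panels, at 0.51 and 0.42, and CEBPB moves from 0.39 for exposure in females to -0.42 for exposure in males; none passed the adjusted test.

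HNF4A, on chromosome 13 of the sheep assembly ARS-UI_Ramb_v3.0 (72742413 to 72809128, plus strand, 8617 bases of exon), is a nuclear receptor bound at a large share of active hepatocyte genes. By CPM it ranked 147th of the tested genes and was the highest of the factors. Control females lay between 410 and 969 CPM with a median of 546, and biosolids females between 412 and 924 with a median of 564. Control males lay between 584 and 1018 CPM with a median of 855, and biosolids males between 459 and 853 with a median of 710. All 4 groups overlapped, although each of the 7 control males was above the median of the control females, 5 of the 8 control females were below every control male, and none of the biosolids males reached the control male median. In females the exposure difference was 0.02 ± 0.20 on the log2 scale (SE; adjusted p = 1 in edgeR's quasi-likelihood test), and its 95% interval ran from 0.761- to 1.34-fold. In males it was -0.23 ± 0.21 (adjusted p = 0.839), with an interval from 0.631- to 1.16-fold, and -0.15 without 8778. Control males minus control females gave 0.36 ± 0.21 (adjusted p = 0.316). An uncharacterised gene, LOC132657645, lies on the other strand within the HNF4A row. The labels do not say whether reads were counted by strand, and the counts on that row came to 0.491 to 4.86% of the HNF4A counts per lamb (median 1.81%).

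FOXA1, FOXA2 and FOXA3 are forkhead pioneer factors, able to bind their sites in closed chromatin. FOXA3 made up the largest part of the family, with a mean of 46.6% of the family's summed level per kilobase in a lamb, against 35.2% for FOXA2 and 18.2% for FOXA1. FOXA1 (chromosome 18, 45500919 to 45507710, minus strand, 4439 bases of exon) had the lowest level of the 9 genes and the clearest difference between sexes. Control females lay between 18.7 and 33.9 CPM with a median of 24.5, and control males between 32.4 and 45.2 with a median of 35.998. The 2 groups overlapped by 1 lamb on each side: 6 of 7 control males were above every control female, and 7 of 8 control females were below every control male.

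Biosolids females had a narrow range of FOXA1, from 21.5 to 30.96 CPM with a median of 25.8. Biosolids males had a wide one, from 18.2 in lamb 8735 to 53.0 in lamb 8762, with a median of 34.5. Of the 7 biosolids males, 5 were above every biosolids female, while 8735 and 8778, at 25.6 CPM, lay among or below them. The fold change of males over females was 1.42 in controls (95% interval 1.15 to 1.77; log2 0.51 ± 0.15, adjusted p = 0.198) and 1.34 in biosolids lambs (1.08 to 1.66; log2 0.42 ± 0.15, adjusted p = 0.939) in edgeR's quasi-likelihood test. The contrast of sex averaged over exposure was added after the data had been seen. There FOXA1 ranked 31st of 17840 genes by p, at log2 0.46 ± 0.11, with 13 of 14 males above the female median. Its adjusted p was 0.0962, and 0.118% of genes passed. The call depended on the tool and on single lambs. By limma voom with sample weights the adjusted p was 0.00429, but 3327 of 17840 genes passed there, so many genes shared that call. By DESeq2 the adjusted p was 0.0231, and 106 of 17840 genes passed. In edgeR it was 0.00475 without biosolids male 8735, where 47 genes passed, and 0.0433 without biosolids male 8778, where 51 passed. With 2 surrogate variables it was 0.864 and the difference 0.25, and with single lambs left out it reached 0.191, without 8762. On library totals without scaling factors the difference was 0.30 and did not pass. Exposure moved FOXA1 little on average, by 0.02 ± 0.15 in females and -0.07 ± 0.16 in males (adjusted p = 1 and 0.931 in edgeR).

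FOXA2 (chromosome 13, 41109552 to 41113926, minus strand, 3526 bases of exon) varied most between lambs of the same group. Its biological coefficient of variation was 36.4%, higher than that of 91.2% of the 1864 genes of like level, against 21.5% for FOXA1 and 30.5% for FOXA3. In control females it lay between 22.0 and 63.0 CPM (median 49.4), in biosolids females between 24.1 and 64.6 (median 40.2), in control males between 35.5 and 78.9 (median 47.6) and in biosolids males between 24.5 and 85.5 (median 42.1). The groups overlapped over most of their range. Exposure differences were -0.18 ± 0.26 in females and -0.12 ± 0.28 in males, with 95% intervals from 0.611- to 1.28-fold and from 0.620- to 1.36-fold. Without 8778 the value in males was -0.02.

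FOXA3 (chromosome 14, 53176285 to 53182966, plus strand, 6275 bases of exon), known for regulating glucose and lipid genes in the mature liver, lay between 72.4 and 144 CPM in control females and between 54.3 and 194 in biosolids females, with medians of 120 and 111. Control males lay between 63.1 and 150 CPM (median 126) and biosolids males between 57.3 and 119 (median 111). Of the 7 control males, 6 were at 116 CPM or more, and none of the biosolids males reached the control male median. The exposure difference in males was -0.29 ± 0.23 on the log2 scale (adjusted p = 0.833 in edgeR), with an interval from 0.591- to 1.14-fold. In females the mean was the same in both groups, at 113 CPM, although the spread was larger after exposure (SD 47.8 against 25.1, n = 8 each; the difference in spread was not tested).

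**Figure D3:**
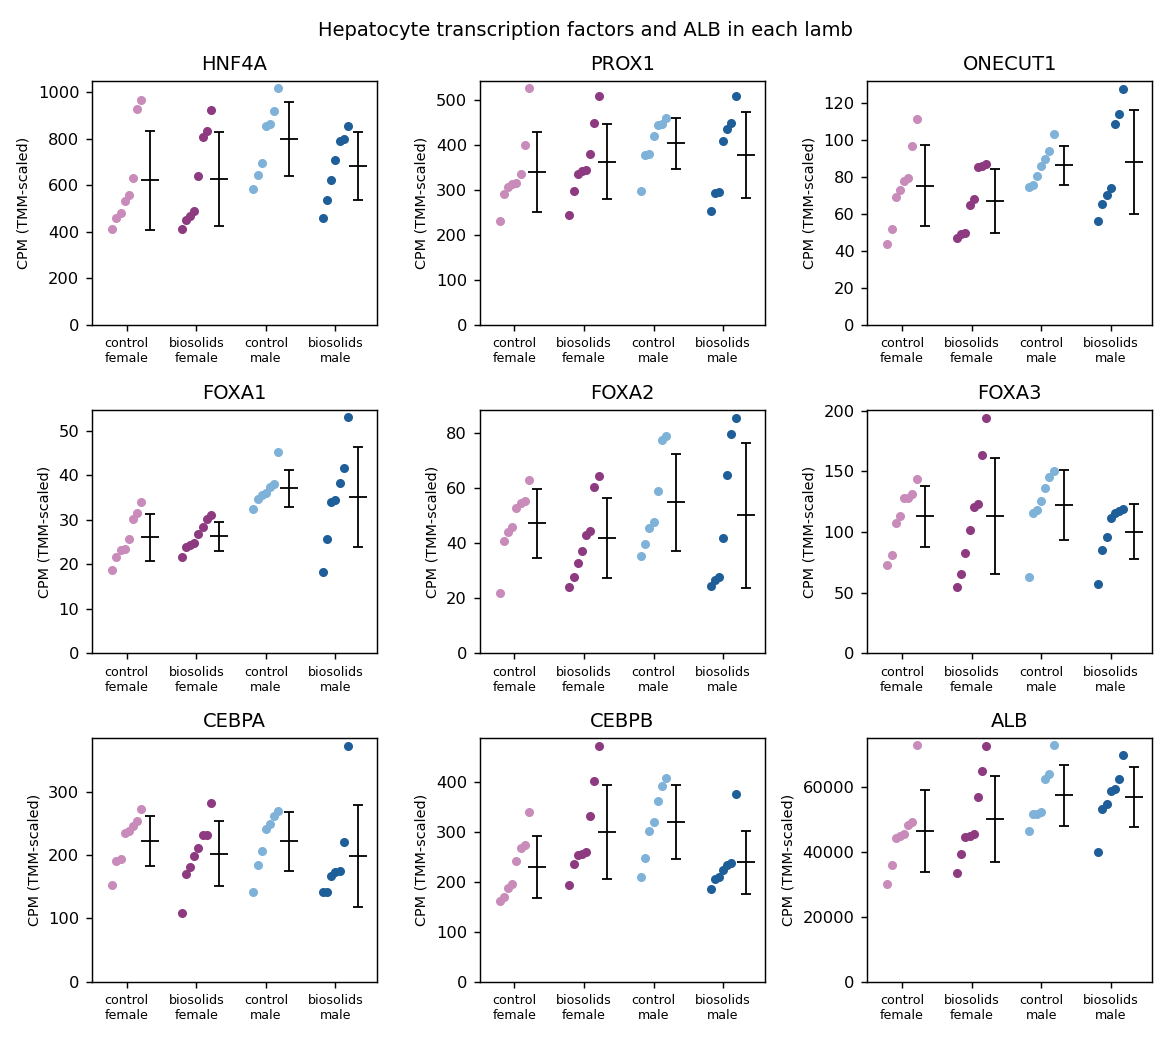
CPM of each gene in each lamb by group, with the group mean and SD; points are lambs (8, 8, 7 and 7 in the order drawn), set from lowest to highest within a group. FOXA1 is the gene with the least overlap between control females (18.7 to 33.9) and control males (32.4 to 45.2), and CEBPB is low in the biosolids males except for 1 lamb at 377.

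CEBPA (chromosome 14, 43221600 to 43222687, minus strand) supports metabolic gene expression and restrains hepatocyte proliferation. Control females lay between 153 and 272 CPM (median 236), biosolids females between 109 and 283 (median 205), control males between 142 and 270 (median 241) and biosolids males between 142 and 372 (median 174). The biosolids medians were the lower ones in both sexes: 1 of 8 biosolids females and 1 of 7 biosolids males exceeded the median of their controls. The ranges nonetheless overlapped, and the differences were -0.14 ± 0.19 in females and -0.16 ± 0.20 in males (adjusted p = 1 and 0.873 in edgeR). The top biosolids male, 8762, stood far above the other 6, which did not exceed 220 CPM. Control males and females had close means, at 222 ± 46.5 and 223 ± 39.7 CPM (SD, n = 7 and 8), with a 95% interval for their ratio from 0.756 to 1.32.

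CEBPB (chromosome 13, 78226982 to 78228893, plus strand, 1912 bases of exon), the inducible family member, was the one gene of the 9 with opposite exposure differences of some size in the sexes. In control females it lay between 161 and 340 CPM with a median of 219, and in biosolids females between 194 and 472 with a median of 257. In control males it lay between 209 and 408 CPM with a median of 321, and in biosolids males between 185 and 377 with a median of 223. Of the biosolids females, 7 of 8 were above the control female median, whereas 1 of 7 biosolids males was above the control male median. Lamb 8762 was that male, and the other 6 did not exceed 239 CPM. Control female 8263 was the highest of its group.

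In edgeR's quasi-likelihood test the CEBPB exposure difference was 0.39 ± 0.19 in females (1.31-fold, 95% interval 0.998 to 1.71, adjusted p = 1) and -0.42 ± 0.20 in males (0.747-fold, 0.560 to 0.996, adjusted p = 0.816). The difference between these effects was -0.81 ± 0.28, with an interval from -1.37 to -0.24. It ranked 73rd of 17840 genes by p in edgeR, and its adjusted p was 0.951, so it did not pass. Each single lamb left out in turn kept both directions, with effects from 0.26 to 0.49 in females and from -0.57 to -0.35 in males. The end at -0.57 was reached without 8762. Males exceeded females by 0.47 ± 0.20 among controls (adjusted p = 0.229 in edgeR), and among biosolids lambs the difference was -0.33 ± 0.20 (adjusted p = 0.969). These contrasts use the same 4 groups, so the high control males enter both the exposure difference in males and the sex difference in controls.

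The balance of the C/EBP pair is given as a description. The log2 ratio of CEBPA to CEBPB in CPM was -0.02 ± 0.51 in control females, -0.56 ± 0.49 in biosolids females, -0.52 ± 0.16 in control males and -0.31 ± 0.30 in biosolids males (SD, n = 8, 8, 7 and 7). CEBPA was above CEBPB in 4 of 8 control females, in 1 of 8 biosolids females, in 0 of 7 control males and in 1 of 7 biosolids males. The females were the more spread out. Control females ran from -1.15 in lamb 8263 to 0.53, and biosolids females from -1.23 in lamb 8649 to 0.13, while control males stayed between -0.71 and -0.26.

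**Figure D4:**
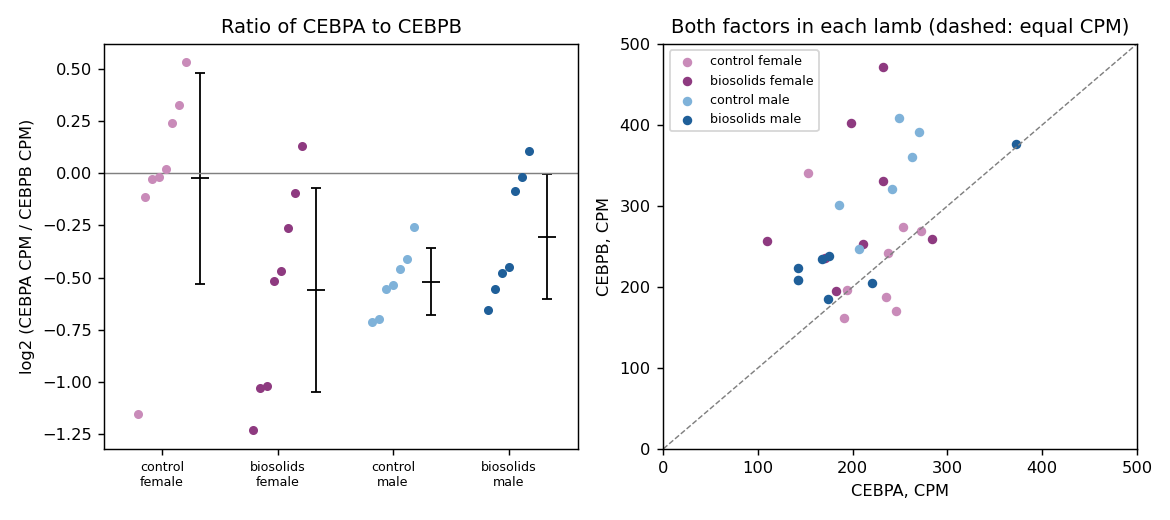
Left, log2 ratio of CEBPA to CEBPB (CPM) in each lamb by group with mean and SD; right, CEBPA against CEBPB in CPM, each point 1 lamb. Control females centre on -0.02 and the 7 control males all lie below 0, between -0.71 and -0.26.

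ONECUT1, also called HNF6 (chromosome 7, 55749198 to 55788442, plus strand, 9223 bases of exon), acts in hepatocyte and bile duct development. It lay between 43.8 and 111 CPM in control females (median 75.2), between 46.9 and 86.9 in biosolids females (median 66.4), between 74.5 and 103 in control males (median 85.9) and between 56.1 and 128 in biosolids males (median 73.8). Control males were the tight group, with an SD of 10.4 CPM against 28.0 in biosolids males (the difference in spread was not tested). In the latter, 3 lambs were above every control male and 4 were below every one. The highest of these 4 was at 73.8 CPM, close to the lowest control male at 74.5, and 8778 among them had 197 counts. The mean difference was thus near 0 (0.03 ± 0.20 on the log2 scale, adjusted p = 0.984 in edgeR). In females the difference was -0.17 ± 0.18 (adjusted p = 1). Males exceeded females by 0.39 ± 0.19 among biosolids lambs (adjusted p = 0.969 in edgeR) and by 0.20 ± 0.19 among controls (adjusted p = 0.557).

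PROX1 (chromosome 12, 69001733 to 69062471, minus strand, 9302 bases of exon), a homeobox factor of hepatoblasts that stays on in hepatocytes and is also known from lymphatic endothelium, was steadier, with a coefficient of variation of 24.1%. Control females lay between 231 and 527 CPM (median 314), biosolids females between 244 and 508 (median 343), control males between 297 and 460 (median 418) and biosolids males between 253 and 508 (median 408). The groups overlapped throughout. Exposure differences were 0.09 ± 0.17 in females (interval 0.841- to 1.35-fold) and -0.10 ± 0.18 in males (0.726- to 1.21-fold), the latter -0.02 without 8778. Sex in controls gave 0.25 ± 0.17 (adjusted p = 0.407 in edgeR).

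ALB (chromosome 6, 89222082 to 89239968, plus strand, 2056 bases of exon) encodes the main plasma protein made by hepatocytes. Control females lay between 30009 and 72817 CPM (median 45177), biosolids females between 33412 and 72356 (median 45161), control males between 46493 and 72827 (median 52286) and biosolids males between 39992 and 69584 (median 58670). All groups overlapped, and every control male was above the control female median. The exposure difference was 0.11 ± 0.19 in females and -0.01 ± 0.20 in males, with intervals from 0.832- to 1.41-fold and from 0.748- to 1.31-fold (adjusted p = 1 and 0.994 in edgeR). Males exceeded females by 0.31 ± 0.19 in controls (adjusted p = 0.354).

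The signs of the 9 genes depended on how the libraries were adjusted. Log2 differences were negative for 8 of 9 genes for exposure in males, with a median of -0.12 against 0.01 over all tested genes, and for 3 of 9 in females, with a median of 0.02 against -0.02. For sex in controls 8 of 9 were positive, with a median of 0.25 against -0.04, and for sex in biosolids lambs 6 of 9, with a median of 0.12 against 0.00. The genes varied together from lamb to lamb, so these counts are not 9 separate observations, and exposure in males shares its control males with sex in controls. With 2 surrogate variables 3 of 9 genes were negative for exposure in males and 3 of 9 were positive for sex in controls. On library totals without ribosomal RNA rows and without scaling factors, 5 of 9 were negative for exposure in males and 5 of 9 positive for sex in controls, and the median of all genes moved from 0.01 to 0.16 and from -0.04 to -0.28.

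That joint variation was measured over the 30 lambs as the correlation of log2 CPM after the 4 group means had been subtracted, with permutation within groups and Benjamini-Hochberg adjustment over the 36 pairs of the 9 genes. All 36 Pearson coefficients were positive, and 17 had an adjusted p under 0.05. With Spearman's coefficient 11 pairs passed. Of all tested genes, 46.0 to 48.7% had a positive Spearman coefficient with a given member. The share of other gene pairs that would pass was not computed, and many genes stood closer than the members did. By its coefficient with HNF4A, FOXA1 ranked 614th and PROX1 835th among the 17839 other genes. ALB followed PROX1 most closely, with Pearson's r = 0.749 (adjusted permutation p = 0.00024) and Spearman's rho = 0.711. HNF4A came next, at r = 0.705 (adjusted p = 0.000792) and rho = 0.645, and then FOXA1, at r = 0.515 (adjusted p = 0.00835) and rho = 0.505. Without 8733 and 8313, the lambs farthest from the median of ALB once group means were subtracted, r was 0.666, 0.588 and 0.494 in turn. The FOXA1 relation rested on 1 lamb for its call, with r = 0.422 and an adjusted permutation p of 0.0546 without biosolids male 8735. The r of PROX1 with ALB was between 0.578 and 0.961 within each of the 4 groups of 7 or 8 lambs, and that of HNF4A between 0.234 in control males and 0.811 in biosolids females.

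These relations depended on the scaling of the libraries. On library totals without ribosomal RNA rows and without scaling factors, an alternative added after the data were seen, 27 of 36 coefficients were positive and 3 passed. There r with ALB was 0.498 for PROX1 (adjusted permutation p = 0.0762), 0.413 for HNF4A (adjusted p = 0.234) and 0.102 for FOXA1 (adjusted p = 0.792), so none of the 3 passed.

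The other 5 factors did not pass with ALB over the 30 lambs, although FOXA2 passed in 6 of 30 runs with 1 lamb left out and ONECUT1 in 1 of 30. FOXA2 had r = 0.407 (adjusted p = 0.0515) and ONECUT1 r = 0.386 (adjusted p = 0.0923), while CEBPA stood at 0.154 (adjusted p = 0.485), CEBPB at 0.128 (adjusted p = 0.588) and FOXA3 at 0.086 (adjusted p = 0.732). A p above the limit does not show that the level of CEBPA or FOXA3 is unrelated to that of ALB. Among all genes, ALB ranked 1299th among the 17839 other genes by its Spearman coefficient with PROX1, 1910th with HNF4A and 2625th with FOXA1.

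**Figure D5:**
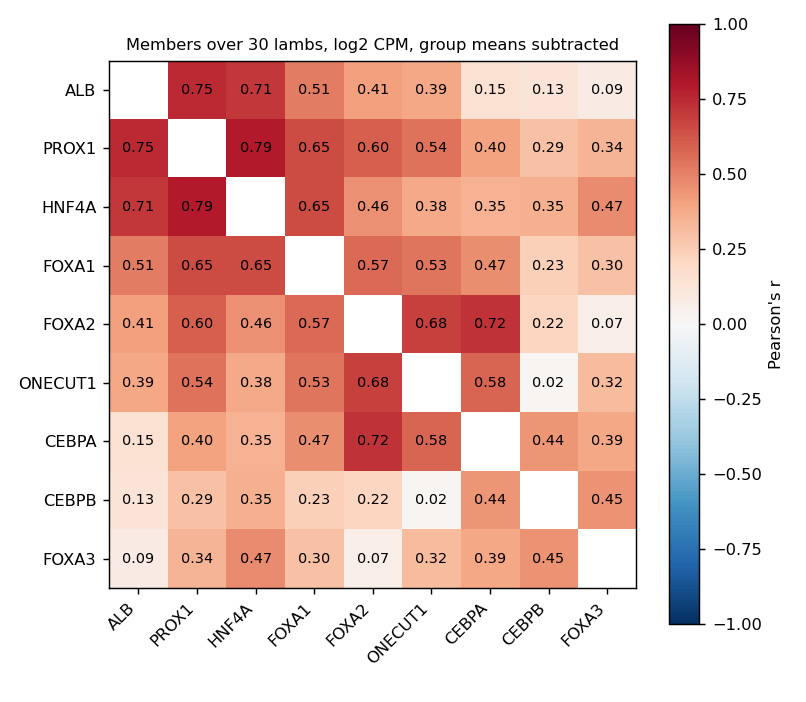
Pearson's r between the 9 genes over 30 lambs (log2 CPM with TMM scaling, group means subtracted), as a heat map with the value in each cell. HNF4A, PROX1, FOXA1 and ALB form one block with r from 0.515 to 0.792, and FOXA2 is closest to CEBPA (0.724) and ONECUT1 (0.683).

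Among the factors themselves, HNF4A and PROX1 had the highest coefficient (r = 0.792, within-group values from 0.663 to 0.919). FOXA2 and CEBPA followed at 0.724, FOXA2 and ONECUT1 at 0.683, FOXA1 and PROX1 at 0.653, and HNF4A and FOXA1 at 0.650. By these values FOXA2 stood nearer to CEBPA and ONECUT1 than to FOXA1 (0.569) or FOXA3 (0.070), and FOXA1 nearer to HNF4A and PROX1; differences between coefficients were not tested. All these values, and the likeness and list correlations that follow, share the libraries and their TMM scaling, and they are across lambs of 1 tissue each.

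The genes most like each member were taken from 12025 genes with a symbol and a mean of at least 1 CPM, by Spearman's rho over the 30 lambs with group means subtracted. HNF4A was closest to MBTPS1 (0.940), the site-1 protease that activates SREBP factors, then to SLC6A11 (0.939) and RAB11FIP1 (0.934). PROX1 was closest to INSR (0.925), the insulin receptor, PTPRG (0.922) and TRRAP (0.921). FOXA1 was closest to IL6R (0.896), the interleukin 6 receptor, CARM1 (0.885), an arginine methyltransferase, and ACOX3 (0.884), a peroxisomal oxidase. These 3 factors had the closest partners.

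CEBPA was closest to NCAPH2 (0.875), ARMC7 (0.869) and ESPN (0.853), and ONECUT1 to RAB40B (0.856), PALS2 (0.855) and OSGIN1 (0.821). FOXA2 was closest to BSDC1 (0.824), NGEF (0.812) and BOK (0.811). CEBPB had RANGAP1 (0.789), SLC25A25 (0.777) and PPP6R1 (0.776), and FOXA3 had FUZ (0.771), TMEM225B (0.730) and TK2 (0.725). ALB was closest to MON2 (0.858), HP1BP3 (0.830) and PCM1 (0.818). None of the 9 genes was among the 3 genes closest to another of them.

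Other hepatocyte factors, 29 nuclear receptors and DNA-binding proteins such as NR1H4 and PPARA, showed the same lack of calls. All 29 were tested and 0 passed in any contrast. For sex in controls 23 of 29 were positive, with a median of 0.21, and the smallest p values were those of FOXO1, the insulin-regulated forkhead factor (0.49 ± 0.17, adjusted p = 0.213 in edgeR), and TBX3 (0.54 ± 0.20, adjusted p = 0.216). For exposure in males 19 of 29 were negative, with a median of -0.16. CEBPD, the third C/EBP gene known from acute responses, stood at 281 ± 51.5 CPM in biosolids males against 344 ± 63.8 in control males (-0.29 ± 0.15, adjusted p = 0.816). In females the smallest p was that of DBP, a clock-controlled factor, at 60.8 ± 16.5 against 86.4 ± 26.7 CPM (-0.51 ± 0.23, adjusted p = 1). Their correlations with the members ran mostly upward: 26 of 29 were positive with PROX1 (median rho 0.59) and 25 with HNF4A (median 0.52), against medians of -0.03 and -0.04 over all genes.

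Further hepatocyte products beside ALB were read as 20 genes, of which 19 were tested and ASGR1 had no row. None passed. For exposure in males 17 of 19 were negative with a median of -0.18, and AHSG, the plasma glycoprotein fetuin-A, had the smallest p, at 10562 ± 3588 against 13886 ± 2717 CPM (-0.39 ± 0.22, adjusted p = 0.816 in edgeR). For exposure in females 11 of 19 were negative with a median of -0.02. For sex in controls 13 were positive with a median of 0.32, led by F9, coagulation factor IX (0.44 ± 0.17, adjusted p = 0.218). HNF4A had the highest median rho of the 9 with this list, at 0.68, against -0.04 over all genes. Its values ran from -0.67 to 0.92, with 15 of 19 positive. The median was 0.54 for ALB, with 16 of 19 positive, 0.48 for PROX1 and 0.17 for CEBPA. Differences between these medians were not tested.

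Of the fetal liver genes, AFP and LIN28B were near or at 0. AFP, the fetal albumin relative that lies next to ALB, had between 0 and 17 counts per lamb and was at 0 in 3 lambs. LIN28B was at 0 in 27 lambs, and neither was tested. The 4 tested genes of this list were positive for exposure in females, with a median of 0.55 against -0.02 over all genes. For exposure in males 2 were positive and 2 negative, with a median of 0.12. IGF2BP3 was near the floor, at a mean of 0.906 CPM in biosolids females and 0.623 in control females. GPC3, a surface proteoglycan of fetal hepatocytes, stood at 234 ± 91.2 CPM in biosolids females against 160 ± 47.1 in control females (0.54 ± 0.25, adjusted p = 1 in edgeR).

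Signals that induce CEBPB, or acute-phase genes that respond with it, were read as 19 genes, of which 17 were tested. DDIT3 was at 0 in all lambs and HP had no row. LCN2, the lipocalin of the acute phase, was the 1 gene that passed, for sex in controls: it was higher in control males, at 25.3 ± 10.8 against 9.37 ± 3.15 CPM (1.43 ± 0.28, adjusted p = 0.0216 in edgeR). In this contrast 14 of the 17 were positive with a median of 0.55. For exposure in males 14 of 17 were negative with a median of -0.49, and for exposure in females 14 of 17 were positive with a median of 0.06. The interaction was negative for 15 of 17, with a median of -0.70, the sign that CEBPB had. Over all tested genes the median was -0.04 for sex in controls, 0.01 for exposure in males, -0.02 for exposure in females and 0.03 for the interaction. These contrasts share their groups, and the sign counts of this list are from the main fit only. IL1RN, the interleukin 1 receptor antagonist, had the smallest p for the interaction (-0.78 ± 0.20, adjusted p = 0.684 in edgeR). Over lambs within groups, the median rho of CEBPB with these genes was 0.26, with 13 of 17 positive.

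Markers of other liver cells were set beside the members, because FOXA1, FOXA2 and ONECUT1 are also known from bile ducts and PROX1 from lymphatic vessels. No marker passed in any contrast. The 8 tested duct markers summed to 98.6 to 309 CPM, highest in biosolids male 8762, the lamb with the most FOXA1, FOXA2, CEBPA and ONECUT1. CLDN4 made up most of that sum in controls, with means of 114 CPM in control females and 191 in control males. Over lambs within groups, 4 of the 8 markers had a positive rho with FOXA1, 3 with FOXA2, 3 with CEBPA and 2 with ONECUT1. The 9 tested endothelial markers summed to 697 to 1187 CPM. PDPN, a gene known from lymphatic endothelium, was at 0 in at least 1 of the 30 lambs. The 9 stellate and fibroblast markers were all positive for sex in controls (median 0.55). Under TMM scaling their sums were 218 to 377 CPM in control females and 416 to 645 in control males. COL3A1 alone had means of 99.7 and 196 CPM in these groups. The separation of these sums rests on the scaling, whose median factor was 1.15 in control females and 0.967 in control males. The sums were not tested. All 9 markers were also positive for exposure in females (median 0.26, against -0.02 over all genes). For the interaction 7 of 9 were negative (median -0.47, against 0.03 over all genes). Both are the signs that CEBPB had. For exposure in males 4 were positive and 5 negative (median -0.14). Over lambs within groups the signs did not match: the median rho of these markers was -0.23 with CEBPB, with 2 of 9 positive. With FOXA1 it was -0.08, with 4 of 9 positive. The part of stellate cells and fibroblasts in the FOXA1 and CEBPB values was not tested.

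Macrophage markers, of which 6 of 8 were tested and CD68 was at 0 in all lambs, summed to 611 to 2050 CPM, and lymphocyte markers, 8 of 8, had their highest sum, 79.8 CPM, in the same lamb, 8263. Both ran against most members: the median rho of the macrophage list was -0.55 with PROX1, -0.47 with FOXA1 and ALB, and -0.34 with HNF4A, but 0.12 with FOXA3. Duct markers had medians between -0.21 and 0.05 with the 9 genes. The part of other cells in the members' values was not tested.

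Many factors were low or high together in single lambs. All 8 factors were below the median of the 30 lambs in control female 8322, biosolids female 8647 and biosolids males 8735 and 8778. In control female 8263, 6 of 8 factors were among the 5 lowest values, while CEBPB was the highest of its group. Biosolids female 8649 had 5 among the lowest and biosolids male 8735 had 4. At the other end, 6 of 8 factors of control male 8351, 5 of biosolids male 8762 and 4 of biosolids male 8695 were among the 5 highest. In 8351, 8394 and 8428, all control males, no factor was below the median. The TMM factors of these libraries ran the other way, at 1.22 to 1.25 in 8263, 8322, 8647, 8649 and 8735 and below 1 in 8351, 8762, 8695, 8394 and 8428, apart from 8778 with its ribosomal RNA. Biosolids males held lambs at both ends, which is also seen in their SDs for FOXA1, FOXA2, CEBPA and ONECUT1, the largest of the 4 groups for each of these genes.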

How the data were processed

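Liver RNA of 30 lambs was profiled with a TruSeq RNA kit and a NovaSeq instrument, per the labels' protocols. Values are the deposited whole-number counts per gene, not normalized. The submitters' processing notes name STAR and featureCounts 1.5.0-p3, with Trimmomatic, FastQC and MultiQC; their settings and the use of strand are not given in the sources used here. Groups were taken from the labelled exposure and sex, and 0 columns were left without a lamb. Of 31304 gene rows, 7 genes broken over 25 lines were joined, and 28862 matched RefSeq's ARS-UI_Ramb_v3.0 by symbol with the same start and end, from which coordinates are given, counted from 1.

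In R 4.3.3 with edgeR 4.0.16, filterByExpr kept 17840 genes and removed 13464, libraries were scaled by TMM, and 1 robust quasi-likelihood model with 4 group means (26 residual degrees of freedom; common biological coefficient of variation 35.2%) gave all contrasts. Calls required an adjusted p under 0.05 (Benjamini-Hochberg, all tested genes). Intervals are 95%. Correlations used log2 CPM with a prior count of 2 and 100000 two-sided permutations within groups.

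The members, gene lists and contrasts were chosen with earlier results of these data known, and the lists support nothing beyond their counts. The 9 members were named in every contrast; of each list, genes that passed (at most 4), or failing that the 2 of lowest p; and the 3 genes most like each member. Batch and litter are not labelled. Because biosolids and control lambs carry separate ranges of tag numbers, exposure and any difference in flock or handling day cannot be told apart. On counts simulated from these lambs, the fit recovered 68 of 100 genes with a log2 change of 1 and 96 of 100 with one of 2 for exposure in females (17405 genes), 65 and 95 for exposure in males (17416) and 74 and 95 for sex in controls (17409). False calls numbered 4, 6 and 11 in turn. The simulation left out ribosomal rows, drew each gene independently and gave 8778 a library size that included its ribosomal counts. Log2 changes below 1, such as those of the members in these contrasts, were not simulated. Alternatives were RLE scaling, DESeq2 1.42.0, 2 filters, 2 surrogate variables (sva 3.50.0), limma 3.58.1 voom with sample weights, fits within 1 sex, ribosomal rows left out and each lamb left out. Sex averaged over exposure, leaving out 8263 and 8778 together, and library totals without ribosomal rows and scaling factors were added after the data were seen.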

Additional observations from a re-analysis of the deposited data

Results flagged for a closer look

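Of the 36 groups of values (9 genes in 4 groups), 4 had an end value set apart from the rest by a gap that Dixon's test calls at the 95% level. Chance flags about 1 in 20 such groups. FOXA3 in control male 8364 stood at 63.1 CPM, with the next lowest control male at 116. CEBPA in biosolids male 8762 stood at 372 CPM, with the next highest at 220, and CEBPB in the same lamb stood at 377 CPM, with the next highest at 239. ALB in control female 8313 stood at 72817 CPM, with the next highest at 49242.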

How the results depend on the processing

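No paired analysis was possible because the groups share no replicate numbers. With no member called, the counts over all genes show how the threshold moves. DESeq2 called 4 genes for exposure in males, 4 for exposure averaged over sexes, 1 for the interaction, 53 for sex in controls and 106 for sex averaged over exposure, against 0, 0, 0, 15 and 21. Voom with sample weights called 64 and 3327 for the last 2. At least 1 CPM in 15 libraries left 3, 11 and, for sex in biosolids lambs, 7 against 17. With single lambs left out the counts were 10 to 23 (23 without 8245), 12 to 21 and 20 to 51 (51 without 8778, 47 without 8735) for sex in controls, in biosolids lambs and averaged, and 0 to 0 for exposure and interaction.

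FOXA1 for sex averaged over exposure passed under DESeq2 (0.46), voom (0.51) and without 8735 or 8778. With 2 surrogate variables it was 0.25, against 0.25 and 0.26 for sex in controls and in biosolids lambs. Without subtraction of group means FOXA2 (r = 0.409) and ONECUT1 (r = 0.459) passed with ALB. Leave-one-out ranges of r with ALB were 0.301 to 0.537 for FOXA2 (passed in 6 of 30), 0.276 to 0.511 for ONECUT1 (passed in 1 of 30), 0.422 (not passed, without 8735) to 0.611 for FOXA1 and -0.027 to 0.141 for FOXA3. Without ribosomal rows and scaling factors, r was 0.498 for PROX1, 0.413 for HNF4A and 0.102 for FOXA1, which no longer passed, and -0.308 for FOXA3, -0.238 for CEBPA and -0.257 for CEBPB.

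Signs that turned were all of differences that had not passed. Voom turned exposure in females for HNF4A (-0.10), FOXA1 (-0.02), FOXA3 (-0.19) and ALB (-0.01), exposure in males for ALB (0.01), sex in controls for CEBPA (0.000236) and sex in biosolids lambs for FOXA3 (0.01). With 2 surrogate variables the turned values were, for exposure, FOXA1 in females (-0.01) and, in males, HNF4A (0.03), FOXA1 (0.01), FOXA2 (0.00242), PROX1 (0.03) and ALB (0.10); for sex in controls HNF4A (-0.04), FOXA2 (-0.19), FOXA3 (-0.18), ONECUT1 (-0.09) and PROX1 (-0.06); and for sex in biosolids lambs HNF4A (-0.04) and PROX1 (-0.10). The 1 CPM filter turned ALB for exposure in males (0.01). Without ribosomal rows and scaling factors, exposure turned for FOXA3 in females (-0.02) and FOXA1 (0.04), PROX1 (0.04) and ALB (0.13) in males, as did sex in controls for FOXA2 (-0.02), FOXA3 (-0.10) and ONECUT1 (-0.03) and sex in biosolids lambs for PROX1 (-0.02). Single lambs left out gave ranges across 0 for exposure in females of HNF4A (-0.08 to 0.14), FOXA1 (-0.04 to 0.08) and FOXA3 (-0.15 to 0.10); for exposure in males of FOXA1 (-0.20 to 0.04), ONECUT1 (-0.09 to 0.11) and ALB (-0.07 to 0.06); for sex in controls of CEBPA (-0.08 to 0.08); and for sex in biosolids lambs of CEBPA (-0.25 to 0.06) and PROX1 (-0.03 to 0.14). The cause was not tested. CEBPB kept its direction for exposure in each sex in all alternatives run. The range was 0.35 to 0.40 in females and -0.49 to -0.25 in males over the alternatives other than leaving lambs out. With lambs left out it was 0.26 to 0.49 and -0.57 to -0.35. Neither RLE scaling nor leaving out ribosomal rows with TMM turned a sign.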
